A study of Homo sapiens with 8 samples.

Results

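The L6 family is a small group of human cell-surface genes named after the L6 tumour antigen, now called TM4SF1. Of the 6 family genes, 5 (TM4SF1, TM4SF4, TM4SF5, TM4SF18 and TM4SF20) had a probe set annotated to them alone, 10 probe sets in all out of 49395 on the array. TM4SF1 had 4 probe sets, TM4SF18 and TM4SF20 had 2 each, and TM4SF4 and TM4SF5 had 1 each. TM4SF19 was left out because its probe set is shared with a read-through transcript. TM4SF1 was picked because its own difference between the groups was among the 10 largest upward ones of 18132 genes, and the other genes were joined to it as its relatives. All differences of these genes are therefore given as a description, with no test.

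AGS, an established human gastric adenocarcinoma line, was profiled for mRNA after 72 hours with podofilox at 3.4 nM (4 arrays) and in control cells (4 arrays). Podofilox, or podophyllotoxin, is a tubulin-binding plant compound that keeps microtubules from assembling. All cells were grown in medium with fetal bovine serum, penicillin and streptomycin, and AGS is a single line. The labels name no solvent for the controls and do not say whether replicates were separate cultures, so p-values rest on array-to-array spread that may be technical.

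Proteins of the L6 family cross the membrane several times and resemble tetraspanins in layout, but they form a separate family by sequence. TM4SF1 is abundant on many carcinoma cells and on endothelial cells, where it lies in thin membrane projections, and it associates with tetraspanins and integrins. TM4SF4 and TM4SF5 are known mainly from liver and intestine, TM4SF20 governs the cleavage of the membrane-bound transcription factor CREB3L1, and TM4SF18 is little studied.

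By its markers AGS read as an epithelial line. Averaged over 7 epithelial markers, the log2 level per array was 12.09 to 12.13 with podofilox and 11.93 to 11.99 in control cells. The same average was 5.44 to 5.65 with podofilox and 5.41 to 5.71 in control cells for 8 endothelial markers, which matter here because TM4SF1 is also an endothelial antigen. For 8 fibroblast markers it was 4.46 to 4.61 with podofilox and 4.40 to 4.59 in control cells, and for 7 immune markers 5.25 to 5.35 with podofilox and 5.09 to 5.24 in control cells. Of the epithelial markers 2 rose (CLDN4 and ELF3) and 0 fell, where 8.55% of all genes rose and 12.5% fell. Both were read by _s_at probe sets alone, and the 3 epithelial markers tested without such sets did not pass. Of the endothelial ones 0 rose and 1 fell (CDH5, -0.44, SE 0.11, limma adjusted p = 0.0209). That call ended without podofilox replicate 2 or 3 and with the mean of the CDH5 probe sets. The other CDH5 set went the other way, at 0.21 (SE 0.09), and did not pass. Of the fibroblast ones 0 passed, and of the immune ones 2 rose (CD68, 0.28, and CD2, 0.31) and 0 fell, with the call of CD2 lost without podofilox replicate 1, podofilox replicate 4 or control replicate 4. The means of CDH5 (4.80 with podofilox, 5.24 in control cells) and CD2 (6.35 and 6.05) lay below the array medians of 6.39 to 6.45. Those of CD68 (7.50 and 7.22) lay above them. The part of these marker shifts in the results on the L6 genes was not tested. In such bulk RNA a change in every cell and a change in the share of cells cannot be told apart.

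TM4SF1 mRNA was 1.88- to 1.91-fold more abundant with podofilox on 3 of its 4 probe sets. On the brightest, 11753129_a_at, the log2 values were 11.14, 11.17, 11.27 and 11.17 on podofilox arrays 1 to 4, against 10.24, 10.36, 10.18 and 10.28 on control arrays 1 to 4. The groups were separate, with a gap of 0.78 between the lowest podofilox and the highest control array. The means were 11.19 ± 0.06 with podofilox and 10.27 ± 0.08 in control cells (SD, n = 4 each), a difference of 0.92 (SE 0.05), or 1.90-fold.

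The 3 bright probe sets of TM4SF1 are annotated to the same mRNA record, so they are read here as repeated readings of 1 transcript and not as separate evidence. On any 1 array their values lay within 0.04 to 0.09 of each other. The set 11753130_at ran from 11.10 to 11.18 with podofilox and from 10.12 to 10.38 in control cells, and its difference was 0.91 (SE 0.06). The set 11753131_x_at ran from 11.07 to 11.18 with podofilox and from 10.12 to 10.30 in control cells, and its difference was 0.93 (SE 0.05). The groups did not overlap on either set.

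The fourth TM4SF1 probe set, 11758801_x_at, did not share this difference. Its annotation rests on an expressed sequence tag, a partial cDNA read, and the part of the transcript it covers is not given in the sources used here. Its values were 6.31, 5.98, 6.44 and 6.59 with podofilox, against 6.26, 6.03, 6.45 and 6.13 in control cells. The groups overlapped throughout, and the difference was 0.11 (SE 0.13). The mean of all 4 probe sets put the difference of TM4SF1 at 0.72, below the 0.92 of the brightest set.

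The TM4SF1 difference was also read by array number, as a description only, since TM4SF1 was chosen on these same arrays. On the brightest set it was 0.854 for arrays numbered 1 and 2, and 0.995 for arrays numbered 3 and 4. By size TM4SF1 was number 10 among upward differences, with PLAUR (0.93) just before it at number 9 and LIPH (0.92) just after it at number 11.

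**Figure D1:**
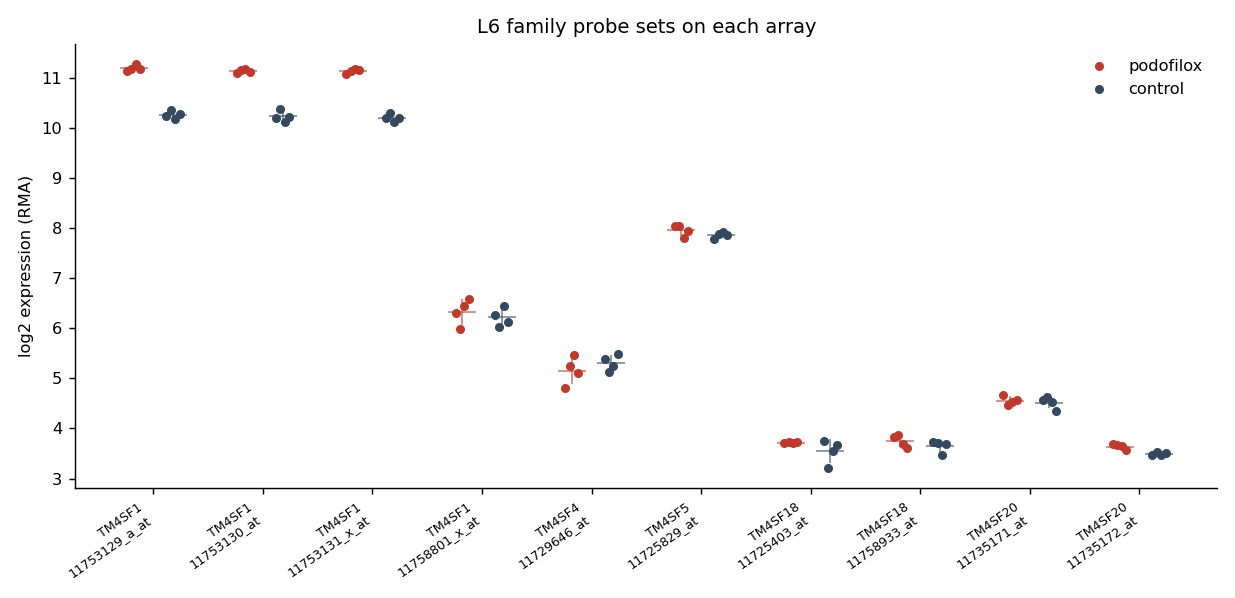
Log2 expression of the 10 L6 family probe sets on each array, with podofilox points left of control points and bars for the mean and SD of 4 arrays. The 3 bright TM4SF1 sets lie near 11.19 with podofilox and near 10.27 in control cells, while the groups of TM4SF4, TM4SF5 and TM4SF18 overlap.

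The 4 other family genes had smaller differences on their brightest probe sets, and TM4SF1 was chosen for a large one. TM4SF5, which acts with integrins in liver and carcinoma cells, was read at 8.04, 8.04, 7.80 and 7.95 with podofilox, against 7.78, 7.88, 7.92 and 7.86 in control cells. The groups overlapped, and the difference was 0.10 (SE 0.06). It was 0.21 for arrays 1 and 2 but -0.02 for arrays 3 and 4, which gave no common direction for TM4SF5.

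TM4SF4, first described in intestine and liver, was read at 4.81, 5.24, 5.46 and 5.10 with podofilox, against 5.39, 5.12, 5.25 and 5.48 in control cells. It was the only family gene whose mean was lower with podofilox on its brightest set, by a difference of -0.16 (SE 0.13). The 4 podofilox values spanned most of the control range and went below it, and podofilox arrays 1 and 4 were the low ones.

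TM4SF18 gave values near the lower end of the array on both of its sets. On 11758933_at the values were 3.82, 3.86, 3.68 and 3.60 with podofilox, against 3.73, 3.71, 3.46 and 3.68 in control cells, a difference of 0.10 (SE 0.08). On 11725403_at they ran from 3.71 to 3.73 with podofilox and from 3.21 to 3.75 in control cells, a difference of 0.17 (SE 0.10) in which control array 2 was the low one. Only 9.94% of single-gene probe sets had a lower mean than 11758933_at and 8.96% a lower mean than 11725403_at, and without detection calls such values cannot be told from background.

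TM4SF20 was dim as well. On 11735171_at the values were 4.67, 4.46, 4.52 and 4.56 with podofilox, against 4.56, 4.63, 4.52 and 4.35 in control cells, with overlap and a difference of 0.04 (SE 0.07). On 11735172_at they were 3.68, 3.66, 3.65 and 3.56 with podofilox, against 3.47, 3.52, 3.47 and 3.50 in control cells. Here the groups did not overlap, by a gap of only 0.04, and the difference was 0.14 (SE 0.04). That set lay above only 7.83% of single-gene probe sets, and 11735171_at lay above 23.5%.

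Counted over the 10 probe sets, 4 had every podofilox array above every control array, where 10.5% of all single-gene probe sets did. They are the 3 bright sets of TM4SF1 and 11735172_at of TM4SF20. Since TM4SF1 was chosen on this contrast and 3 of the 4 sets share its mRNA, nothing is read from that count.

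**Figure D2:**
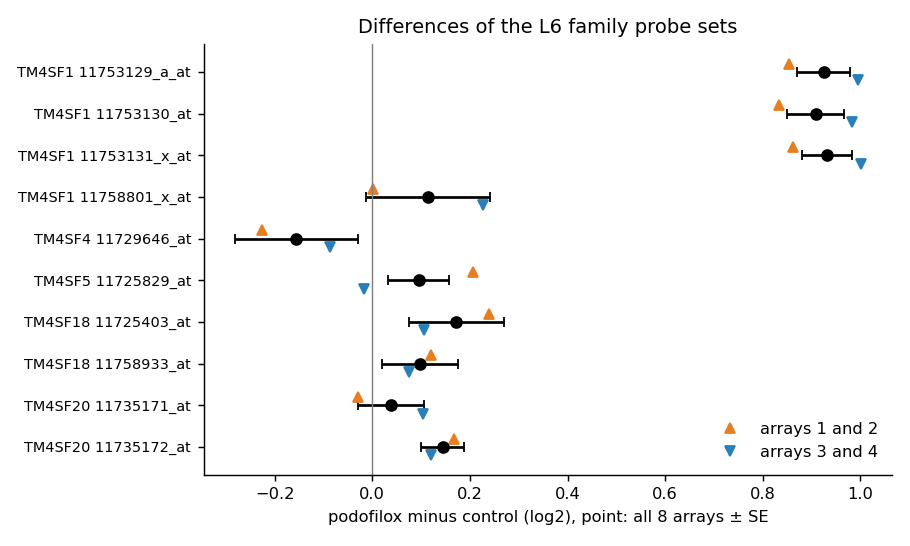
Difference of podofilox minus control (log2) for each L6 family probe set, with the SE of the limma fit over 8 arrays, and the same difference for arrays 1 and 2 alone and for arrays 3 and 4 alone. The 3 bright TM4SF1 sets stand at 0.91 to 0.93, and the other sets lie between -0.16 and 0.17.

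TM4SF1 sits on chromosome 3 with TM4SF18 as its neighbour on one side and TM4SF4 on the other, so that 3 family genes are adjacent. Their upstream sequences are shown so that the starts of TM4SF1 and of the relatives beside it can be compared. Each is the 250 bases before the RefSeq start (assembly GRCh38.p14), 5′ to 3′ on the strand of the gene. TM4SF1 is at chr3:149377650-149377899 on the minus strand, TM4SF18 at chr3:149333637-149333886 on the minus strand, and TM4SF4 at chr3:149474447-149474696 on the plus strand. Capitals mark the short motifs named after the sequences.
TM4SF1: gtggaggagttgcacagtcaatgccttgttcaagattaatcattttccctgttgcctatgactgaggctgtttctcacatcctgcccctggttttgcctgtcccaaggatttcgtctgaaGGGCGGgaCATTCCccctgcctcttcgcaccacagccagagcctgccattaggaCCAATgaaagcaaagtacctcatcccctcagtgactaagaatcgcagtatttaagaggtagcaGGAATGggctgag
TM4SF18: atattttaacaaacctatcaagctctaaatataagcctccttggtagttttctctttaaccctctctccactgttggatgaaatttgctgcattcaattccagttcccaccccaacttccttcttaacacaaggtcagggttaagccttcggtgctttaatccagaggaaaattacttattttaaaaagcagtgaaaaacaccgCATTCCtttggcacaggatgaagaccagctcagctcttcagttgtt
TM4SF4: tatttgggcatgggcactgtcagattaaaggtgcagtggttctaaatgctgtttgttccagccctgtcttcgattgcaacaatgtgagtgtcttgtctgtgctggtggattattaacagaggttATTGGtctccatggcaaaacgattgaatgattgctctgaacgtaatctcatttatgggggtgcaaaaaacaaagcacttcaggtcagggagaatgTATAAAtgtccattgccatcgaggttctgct

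The motifs were searched on both strands and chosen with these sequences in view, and they are a description only. They were the CCAAT box (CCAAT), the GC box (GGGCGG), the AP-1 site (TGANTCA), the core of the site bound by TEAD factors (GGAATG) and the TATA box (TATAAA). TM4SF1 holds GGAATG at 13 to 8 bases before its start and its reverse complement CATTCC at 122 to 117, together with CCAAT at 76 to 72 and GGGCGG at 130 to 125. TM4SF18 holds CATTCC at 46 to 41. TM4SF4 holds TATAAA at 31 to 26 and ATTGG, the reverse complement of CCAAT, at 126 to 122. No marked motif overlaps another.

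Among all 35116 RefSeq windows of this length, 32.0% hold CCAAT, 42.6% GGGCGG, 11.9% GGAATG, 10.7% TATAAA and 6.57% TGANTCA. The letters TGANTCA are in none of these 250-base windows of TM4SF1, TM4SF4, TM4SF5, TM4SF18 and TM4SF20. The G and C bases make up 50.8% of the TM4SF1 window, 40.0% of the TM4SF18 window and 43.2% of the TM4SF4 window, where the median of all windows is 58.0%. The start of the antisense gene TM4SF1-AS1 lies 129 bases upstream of the TM4SF1 start on the other strand, inside the TM4SF1 window. No probe set is assigned to that antisense gene in the annotation used here, and no value is given for it.

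The neighbours of TM4SF1 were compared to see how the genes around it read. The 6 nearest protein-coding genes on each side include TM4SF18 and TM4SF4, which leaves 10 outside the family. Of these 10, 1 rose and 0 fell, where 8.55% of all genes rose and 12.5% fell. HPS3, a gene of lysosome-related organelles mutated in Hermansky-Pudlak syndrome, rose by 0.22 (SE 0.05, limma adjusted p = 0.00768), and its second probe set rose by 0.23. The 10 differences ran from -0.07 to 0.22 with a median of 0.0617, against a median of 0.00693 over all genes.

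WWTR1, which encodes the transcriptional coactivator TAZ, lies beyond TM4SF4 and its probe sets disagreed in size. On the brightest set it read 8.13, 8.17, 8.09 and 8.24 with podofilox, against 8.00, 7.79, 8.11 and 8.00 in control cells. The groups overlapped there, and the difference of 0.18 (SE 0.07) did not pass (limma adjusted p = 0.0817). Its other 2 probe sets rose by 0.47 (SE 0.06) and 0.48 (SE 0.09) in the fit over all 44988 single-gene probe sets, of which 7.83% rose (limma adjusted p = 0.000535 and 0.00494). With the mean of its probe sets WWTR1 passed, and it also passed without control replicate 3. The same held among genes above the median level, with trend and robust estimation and with array weights. COMMD2 (0.11) and RNF13 (0.07), further along, did not pass, though COMMD2 did among genes above the median level and with array weights.

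**Figure D3:**
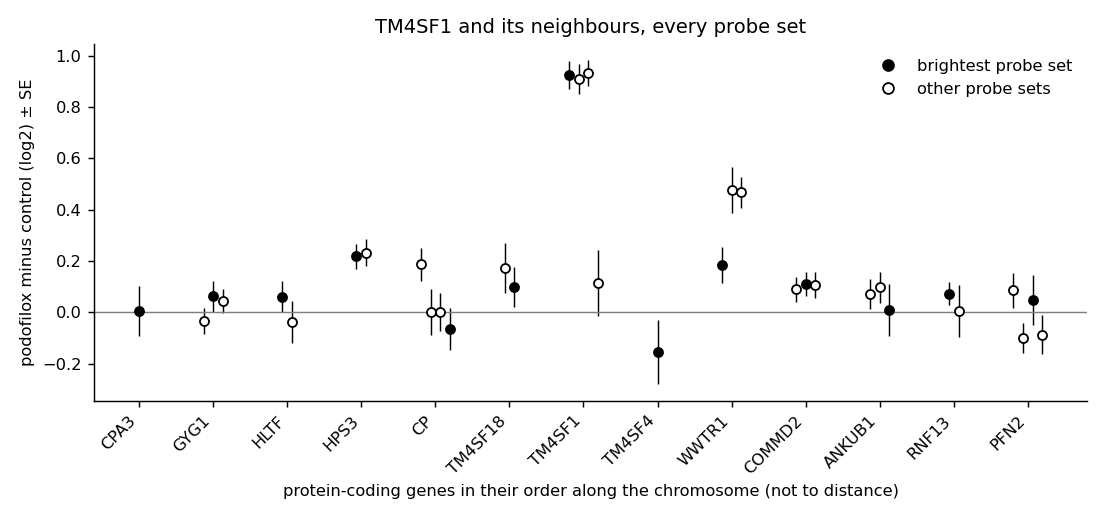
Difference of podofilox minus control (log2, with SE) for every probe set of TM4SF1 and its 12 nearest protein-coding neighbours, in their order along the chromosome, filled for the brightest set of a gene. The 3 bright TM4SF1 sets stand at 0.91 to 0.93, and the highest neighbour sets are those of WWTR1 at 0.47 and 0.48.

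The reported partners of L6 proteins mostly rose where they passed the test. The list of 22 genes holds receptors, integrins and signalling proteins reported as partners or effectors of TM4SF1, TM4SF5 or TM4SF20. Of these 22, 8 rose (36.4%) and 1 fell (4.55%), where 8.55% of all genes rose and 12.5% fell. The median difference was 0.12, against 0.00693 over all genes. Among genes above the median level, 8 of 19 rose and 2 fell, where 1481 of 9066 genes rose and 2593 fell. Like the other lists, this one was chosen with earlier results of these data known, so its share is a description only. With arrays 1 and 2 alone 5 rose and 0 fell, where 468 of 18132 genes rose and 542 fell. With arrays 3 and 4 alone 4 rose and 0 fell, where 905 of 18132 genes rose and 1395 fell.

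Among receptors, EGFR, the epidermal growth factor receptor that TM4SF5 is reported to bind, had the largest difference of the list. It read 9.30, 9.32, 9.23 and 9.28 with podofilox, against 8.67, 8.70, 8.61 and 8.56 in control cells, and rose by 0.65 (SE 0.05, limma adjusted p = 2.6e-05). Of its 7 other probe sets 3 rose and 0 fell, with differences from 0.02 to 0.65, and its call was lost once sets of the _x_at and _s_at kinds were left out (adjusted p = 0.0578). IGF1R, the receptor of insulin-like growth factor, rose by 0.41 (SE 0.09), with 0.22 for arrays 1 and 2 and 0.61 for arrays 3 and 4. The hyaluronan receptor CD44 rose by 0.30 (SE 0.06), with 0.17 for arrays 1 and 2 and 0.44 for arrays 3 and 4.

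Among integrins, which anchor cells to the matrix, all 3 listed genes rose. ITGA2, a subunit of a collagen receptor, read 11.05 to 11.06 with podofilox and 10.62 to 10.71 in control cells and rose by 0.37 (SE 0.04, limma adjusted p = 0.000195). ITGA5, a subunit of the fibronectin receptor, rose by 0.22 (SE 0.04), and ITGB1, which pairs with both, rose by 0.16 (SE 0.04, limma adjusted p = 0.032). The ITGB1 call was kept without podofilox replicate 1 or control replicate 1 and was lost without any 1 of the other 6 arrays, while 2 of its 4 other probe sets rose and 0 fell.

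SDCBP2, DDR1 and PRKCA, which are among the genes reported as partners of TM4SF1, did not pass. SDCBP2, the scaffold protein syntenin-2 that binds the tail of TM4SF1, differed by 0.16 (SE 0.06, 95% interval 0.01 to 0.30, limma adjusted p = 0.119). The collagen receptor kinase DDR1, reported to couple to TM4SF1, differed by 0.05 (SE 0.04, 95% interval -0.03 to 0.14). PRKCA, the kinase recruited in that pathway, differed by 0.11 (SE 0.05, 95% interval -0.0046 to 0.23). Its 4 podofilox arrays lay above its 4 control arrays, but only just, at 8.31 for the lowest against 8.30 for the highest. Of all single-gene probe sets 10.5% were separate in this way. The other 2 probe sets of PRKCA differed by 0.03 and 0.05 and did not pass.

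CREB3L1, the transcription factor whose cleavage TM4SF20 governs, rose by 0.27 (SE 0.06, limma adjusted p = 0.00875). CASTOR1, an arginine sensor of the mTORC1 pathway, rose by 0.36 (SE 0.05, limma adjusted p = 0.00114). KPNB1, importin beta, was the gene that fell, at -0.19 (SE 0.04, limma adjusted p = 0.0051). Of its 4 other probe sets 2 fell and 1 rose, with differences from -0.26 to 0.22.

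The classical tetraspanins are the membrane proteins that L6 members resemble in layout. Of 33 genes 4 rose (12.1%) and 0 fell, where 8.55% of all genes rose and 12.5% fell, with a median difference of 0.0799. The largest difference was 0.34. TSPAN5, a regulator of the sheddase ADAM10, rose by 0.34 (SE 0.05, limma adjusted p = 0.00164). With arrays 1 and 2 alone 0 tetraspanins rose, where 468 of 18132 genes did. With arrays 3 and 4 alone 3 rose, where 905 of 18132 genes did. TSPAN15 differed by 0.16 (SE 0.05) and did not pass. It passed among genes above the median level, with median centring, with trend and robust estimation and with array weights. The mean of probe sets per gene and the fit without podofilox replicate 3 also let it pass.

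CD9, a tetraspanin found with TM4SF1 in membrane microdomains, read 13.44, 13.47, 13.58 and 13.53 with podofilox, against 13.29, 13.28, 13.24 and 13.28 in control cells. It rose by 0.23 (SE 0.04, limma adjusted p = 0.00442). Of its 8 other probe sets 4 rose and 0 fell. TSPAN3 rose by 0.20 (SE 0.04, limma adjusted p = 0.0052). TSPAN9 rose by 0.20 (SE 0.05, limma adjusted p = 0.0121) on its brightest set, while its other set was at 0.0014, and it no longer passed with both averaged. The other microdomain tetraspanins did not pass, with CD151 at 0.11 (SE 0.05), CD82 at 0.11 (SE 0.07), CD63 at 0.04 (SE 0.04) and CD81 at -0.02 (SE 0.04).

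Filopodia genes were listed because TM4SF1 is known from thin membrane projections of endothelial cells. Of 12 genes 1 rose (8.33%) and 0 fell, where 8.55% of all genes rose and 12.5% fell, so the share that rose was close to that of all genes. The median difference was 0.0178. FMNL2, a formin that elongates actin filaments, rose by 0.22 (SE 0.04, limma adjusted p = 0.00634). Its call was lost with arrays 1 and 2 alone and with arrays 3 and 4 alone, and its other probe set, at 0.19 (SE 0.06), did not pass. MYO10, the myosin of filopodial tips, was at 10.64 ± 0.23 with podofilox and 10.46 ± 0.08 in control cells (SD, n = 4 each) and did not pass, and 1 of its 4 other probe sets fell. With arrays 3 and 4 alone MYO10 passed, at 0.43, against -0.06 for arrays 1 and 2. VASP (0.10), BAIAP2 (0.11) and EVL (0.11) did not pass.

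Liver and intestine genes were listed because TM4SF4, TM4SF5 and TM4SF20 belong to those tissues. Of 14 measured genes 0 rose and 4 fell (28.6%), where 12.5% of all genes fell, with a median difference of -0.0693. Only 3 of the 14 were read above the median level of all genes, so the median difference is mostly that of dimmer genes. Among genes above the median level these 3 all fell, where 2593 of 9066 genes did. The 4 were CDX2, a transcription factor of the intestine (-0.68, SE 0.05), the intestinal cadherin CDH17 (-0.33, SE 0.04), VIL1, the brush-border protein villin (-0.30, SE 0.06), and APOA1, the main apolipoprotein of high-density lipoprotein (-0.17, SE 0.04). FABP1, a fatty acid binding protein of liver, was at -0.19 (SE 0.09) and did not pass. It was dim, with means of 4.21 with podofilox and 4.41 in control cells. TM4SF4 alone of the 3 family genes of these tissues also had a lower mean with podofilox, at -0.16 (SE 0.13) with overlapping groups.

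**Figure D4:**
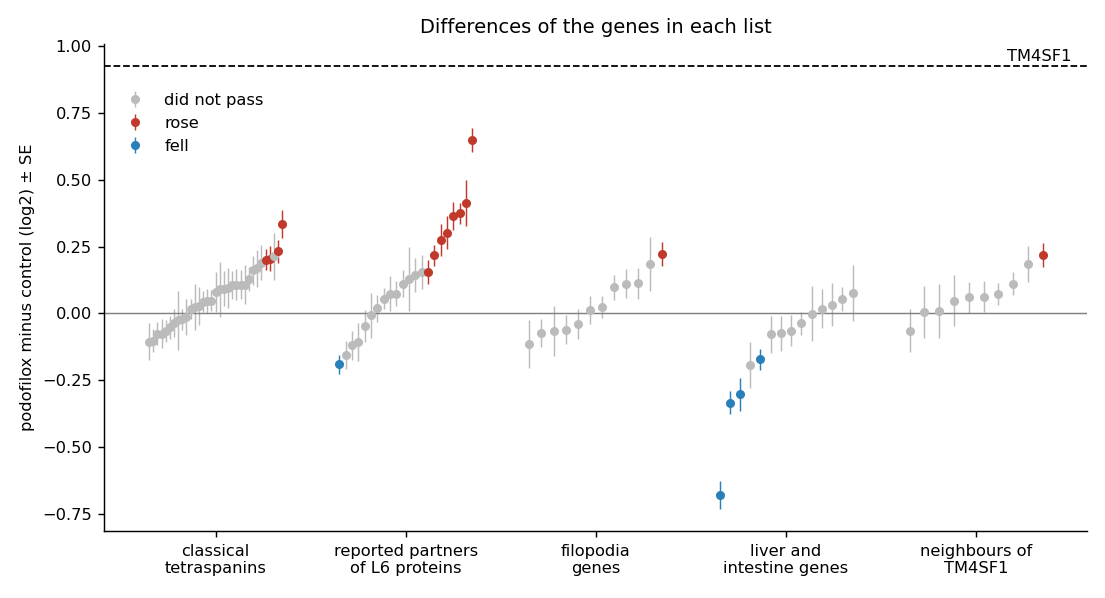
Difference of podofilox minus control (log2, with SE) for each gene of 5 lists, coloured by whether it rose, fell or did not pass in the limma fit over all genes, with the L6 members left out of their lists and the TM4SF1 difference as a dashed line. Of the listed genes EGFR is highest at 0.65 and CDX2 lowest at -0.68.

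The genes whose pattern was most like that of TM4SF1 over the 8 arrays were found by Pearson's r among 13643 genes with a mean of at least 5 in a group. The 8 points fall into the 2 groups, so r mostly follows the difference between them, and 394 genes had an r over 0.95. The 5 highest were DDIT3 (0.998), the stress transcription factor CHOP, MANF (0.997), a secreted protein of endoplasmic reticulum stress, the zinc finger gene ZFAND5 (0.997), the growth factor FGF20 (0.997) and GADD45A (0.997), a growth arrest gene. Their own differences were 0.78, 0.57, 0.18, 0.83 and 0.55. The 5 lowest were the focal adhesion gene TNS3 (-0.998), the nuclear transport GTPase RAN (-0.997), the DNA repair gene FANCF (-0.996), the RNA helicase gene DDX5 (-0.995) and APOA2 (-0.995), an apolipoprotein gene.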

How the data were processed

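The deposited values are log2 expression summaries of each probe set, made by the authors with RMA per the submitters' processing notes, with no software version or options named there. The values ran from 2.64 to 15.0, with array medians of 6.39 to 6.45, and were not centred per gene. The log2 scale was read from that range. Of 49395 probe sets, 102 were manufacturer controls, 44988 had 1 gene in the platform annotation, 1832 had several genes and 2473 were unnamed here. Entrez identifiers of 44961 were found in RefSeq (GRCh38.p14), and 0 symbols changed.

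Each of 18132 genes was read from its brightest single-gene probe set, and L6 probe sets were also fitted singly among all 44988. Podofilox was set against control by lmFit and eBayes of limma 3.58.1 (R 4.3.3), with group as the only term, no filter on dim values, two-sided. A gene rose or fell where its Benjamini-Hochberg adjusted p over all genes was under 0.05. Without counts or detection calls, the number of arrays limits the precision. The fit was tested on simulated data. Figures used matplotlib 3.10.9.

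The members and lists were chosen with earlier results of these data known. Of each list, the 5 genes with the smallest p are named (of the 4 cell type marker lists, only those that passed, with FAP and CDH1 in the closing section), plus SDCBP2, DDR1, PRKCA, CD9, CD63, CD81, CD82 and CD151, and the 5 genes most and least correlated with TM4SF1. IGF1R, CD44, CREB3L1 and ITGB1, the other partners to pass, were named after their values were seen. A further 3 listed genes lacked a probe set of their own and were not used here. Alternatives were a filter, quantile normalization, median centring, trend with robust estimation, array weights, a replicate block, other probe set choices, arrays 1 and 2 or 3 and 4 alone, and each array left out.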

Additional observations from a re-analysis of the deposited data

Results flagged for a closer look

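Of 130 groups of 4 arrays examined, 8 had 1 array far from the other 3, and chance flags about 1 in 20 such groups. None of the 8 belonged to an L6 family probe set. With podofilox, TSPAN9 had an array at 8.98 with the others at 8.83, CDH1 had one at 7.44 against 7.54 to 7.55, and CDH5 had one at 4.85 against 4.78. In control cells, CD81 had an array at 11.97 against 11.93, CD82 one at 7.44 against 7.76 to 7.77, BAIAP2 one at 8.61 against 8.79 to 8.81, CDH1 one at 7.53 against 7.36 to 7.39, and the fibroblast marker FAP one at 3.49 against 3.35 to 3.37.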

How the results depend on the processing

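The TM4SF1 difference of 0.92 was 0.896 to 0.958 with each array left out and 0.719 with the mean of its probe sets. It was 0.854 for arrays 1 and 2 alone and 0.995 for arrays 3 and 4 alone. The replicate block left it at 0.92, as it must where each number has an array of either group. The labels do not say whether equal replicate numbers mean a pair. Same-numbered arrays deviated together at r = -0.13, 0.09, -0.24 and 0.06, and arrays of unlike number at -0.15 to 0.24. The number of changed genes (3810) was 2741 with the replicate block, 1010 within arrays 1 and 2, 2300 within arrays 3 and 4, and 2706 to 3590 with an array left out. Changed probe sets (8112) numbered 5243 without _x_at and _s_at sets, where fewer sets were tested, and 2705 and 4642 with arrays 1 and 2 or 3 and 4 alone. These subsets hold fewer arrays, and the cause of the other shifts was not tested. Of all genes, 4074 of 9066 were called among those above the median level. With array weights 5275 of 18132 were called, with trend and robust estimation 4449, and with the mean of probe sets 4008. The counts of each list below are to be read beside these shares. Tetraspanins called (4 of 33) numbered 7 of 20 among genes above the median level, where 6 rose and 1 fell. They numbered 7 of 33 with array weights and 0 within arrays 1 and 2. Reported partners (9 of 22) numbered 5 and 4 in the subsets. Filopodia genes (1 of 12) numbered 0 within arrays 1 and 2 and 1 within arrays 3 and 4, where MYO10 passed and FMNL2 did not. With an array left out they numbered 1 to 2 (2 without control replicate 2 or 3). Liver and intestine genes (4 of 14) numbered 2 in each subset. Neighbours outside the family (1 of 10) numbered 3 of 5 among genes above the median level and 3 of 10 with array weights. They numbered 2 of 10 with trend and robust estimation and with the mean of probe sets, and 0 in each subset. With an array left out 1 to 2 were called (2 without control replicate 3). Of 257 alternative values for the 24 named genes that passed (arrays left out counted once, at their highest p), 39 no longer passed and 0 changed sign. Of 324 alternative values for the 31 named genes that did not pass (arrays left out counted once, at their lowest p), 25 passed in the same direction. With the replicate block ITGB1 and APOA1 no longer passed. The filter left out TM4SF4, TM4SF18 and TM4SF20.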
